A study of Mus musculus with 9 samples.

Results

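The transcripts of 10 lysosomal peptidases were followed in sorted intestinal stem cells of the mouse after loss of KANSL1, the scaffold subunit of the NSL histone acetyltransferase complex. The genes were Tpp1, the cathepsin genes Ctsa, Ctsb, Ctsc, Ctsd, Ctsf, Ctsh, Ctsl and Ctsz, and Lgmn. They were picked by symbol, through the GENCODE M21 annotation, from the 57180 gene identifiers of the deposited count table, and all 10 were among the 13405 genes that passed the filter on low counts. The list was drawn up with earlier results of these libraries in view. The low counts of Tpp1 at KO day 3 led to it, so its levels are given as a description, no test of it is read, and counts of calls cover the other 9 genes.

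RNA-seq counts came from 9 libraries of Lgr5-GFP+ cells of the small intestine, 3 in each group. Cells labelled KANSL1-KO came from Kansl1 f/f mice with the Lgr5-EGFP-CreERT2 allele, which expresses green fluorescent protein and a tamoxifen-dependent Cre recombinase under control of the stem cell gene Lgr5. They were taken after daily tamoxifen for 4 days (KO day 4) or for 3 days (KO day 3). Control cells, labelled KANSL1-WT, came from mice given corn oil and were sorted by the same GFP signal, so those mice carried the Lgr5 reporter too. Whether they were also floxed, and the age of the mice, is not given in the sources used here. Loss of KANSL1 and tamoxifen go together in each comparison with the control and cannot be told apart, nor can days of tamoxifen and time since recombination between the KO groups. The labels name no batch, but the library names begin with 1 letter in the controls and another in the KO groups, so group and any batch behind that letter cannot be told apart. Nothing says whether the 3 replicates of a group came from different animals, and p-values therefore describe the spread among these libraries, some or all of which may be technical.

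Lysosomal peptidases are made as inactive precursors on the endoplasmic reticulum, tagged with mannose phosphate in the Golgi, carried to endosomes by receptors for that tag, and activated by cleavage at acidic pH. Together they break proteins delivered by endocytosis and autophagy down to peptides and amino acids. Tripeptidyl peptidase TPP1 and cathepsin A are serine peptidases, cathepsin D is an aspartic endopeptidase, and cathepsins B, C, F, H, L and Z are papain-like cysteine peptidases. Legumain, the product of Lgmn, is an asparaginyl endopeptidase that also trims cathepsins to their mature chains. Loss of TPP1, cathepsin D or cathepsin F in people causes forms of neuronal ceroid lipofuscinosis, a storage disease. Many lysosomal genes are induced by TFEB, TFE3 and MITF, basic helix-loop-helix factors that bind an E-box with the letters CACGTG.

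Depth ranged from 8400458 to 21484679 counts a library. Counts from the mitochondrial genome took 66.9% to 72.1% of the KO day 4 libraries, 19.0% to 32.4% of the KO day 3 libraries and 16.4% to 25.8% of the controls. The 10 peptidase genes together drew 2851 to 4862 counts a library at KO day 4, 7087 to 15764 at KO day 3 and 13920 to 18951 in controls. Levels below are CPM, the counts of a gene relative to the library total, with totals scaled by TMM, a method that sets the bulk of genes level between libraries, and the TMM factors were 0.400 to 0.504 at KO day 4, 1.22 to 1.40 at KO day 3 and 1.44 to 1.83 in controls. Scaled by library size alone, the median gene had a log2 fold change of -1.95 at KO day 4 and -0.39 at KO day 3 against control, and -1.54 between KO day 4 and KO day 3, so the changes given are relative to the bulk of genes. KO day 4 replicate 3 and KO day 3 replicate 1 stood apart from their groups, with correlations of log2 CPM of 0.913 to 0.919 and 0.946 to 0.950 with their group mates, against 0.978 to 0.982 among controls. Kansl1 itself was at 2.93, 5.09 and 8.96 CPM in KO day 4 libraries, 2.81, 2.99 and 2.55 CPM in KO day 3 libraries and 4.46, 11.4 and 9.83 CPM in controls. The libraries labelled KO day 4 replicates 2 and 3 thus overlapped the controls for Kansl1, and reads from exons outside the deleted part are included.

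Sums over lists of marker genes of other cell types moved with the groups, given here as CPM of nuclear counts. Mast cell markers (11 genes) summed to 430 to 1175 at KO day 4, 20.1 to 183 at KO day 3 and 0.10 to 0.644 in controls, where 6 of the 11, among them Fcer1a and Ms4a2, were at 0. Hdc, Tpsab1 and Mcpt1 had only 5, 1 and 0 counts over the KO day 4 libraries. Macrophage and dendritic cell markers (11 genes) summed to 34.4 to 77.7 at KO day 4, 23.8 to 32.8 at KO day 3 and 11.3 to 24.2 in controls. Of these genes Lyz2 gave the most counts at KO day 4, and Cd14 had a lower mean there than in controls. T and NK cell markers (8 genes) summed to 27.8 to 86.0 at KO day 4, 1.72 to 16.2 at KO day 3 and at most 0.376 in controls, with Cd3e, Cd3g, Cd3d, Nkg7 and Gzma at 0 at KO day 4. Their KO day 4 counts came from Gzmb and Ptprc, apart from 1 count of Cd8a. Paneth cell markers (8 genes) summed to 111780 to 153417 at KO day 4, 30996 to 48178 at KO day 3 and 20125 to 49069 in controls. Goblet cell markers (6 genes) summed to 2980 to 5011 at KO day 4, 1734 to 2379 at KO day 3 and 1667 to 2077 in controls, and tuft cell markers (6 genes) to 138 to 369, 10.9 to 26.4 and 5.58 to 6.10. Spink4 gave the most goblet marker counts at KO day 4. Fcgbp was lower there, at 72.8, 82.4 and 122 CPM against 138, 316 and 169 CPM in controls. Enterocyte markers (8 genes) summed to 245 to 314 at KO day 4, 449 to 715 at KO day 3 and 511 to 643 in controls. Among them Apoa1 was higher at KO day 4, at 20.6, 9.54 and 11.9 CPM against 5.82, 5.02 and 3.01 CPM in controls. Stromal markers (7 genes) summed to 11.7 to 24.4 at KO day 4, 1.64 to 5.73 at KO day 3 and 0.286 to 2.63 in controls. At KO day 4 the single gene Pecam1 held 39, 47 and 68 of the 73, 49 and 76 stromal counts, and Pdgfra held 0. Stem cell markers (8 genes, Lgr5 and Olfm4 among them) summed to 2727 to 7528 at KO day 4, 12620 to 18257 at KO day 3 and 18766 to 22643 in controls. These transcripts were thus present in every library, with the lowest sums at KO day 4. Olfm4 made up most of the sum, with 35996 of 42264 counts in KO day 4 replicate 1 and 217185 of 249293 in control replicate 1. Only Axin2, at 72.5, 48.8 and 42.1 CPM at KO day 4, overlapped the controls (58.7, 61.0 and 62.8 CPM). What part these other transcripts have in the results below was not tested, except where a value is given. In these bulk libraries, fewer cells of a type and less RNA per cell cannot be told apart.

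The genes lie on 7 chromosomes of GRCm38. Tpp1 (ENSMUSG00000030894) is on chromosome 7, 105744811 to 105752235, minus strand, and 2 cathepsin genes are on the same chromosome, Ctsc (ENSMUSG00000030560) at 88278085 to 88310888, plus strand, and Ctsd (ENSMUSG00000007891) at 142375911 to 142388038, minus strand. Ctsa (ENSMUSG00000017760) is on chromosome 2, 164832873 to 164841032, plus strand, and Ctsz (ENSMUSG00000016256) on chromosome 2, 174427493 to 174439039, minus strand. Ctsb (ENSMUSG00000021939) is on chromosome 14, 63122462 to 63145923, plus strand, Ctsl (ENSMUSG00000021477) on chromosome 13, 64359337 to 64370890, minus strand, and Lgmn (ENSMUSG00000021190) on chromosome 12, 102394084 to 102439813, minus strand. Ctsh (ENSMUSG00000032359) is on chromosome 9, 90054152 to 90076089, plus strand, and Ctsf (ENSMUSG00000083282) on chromosome 19, 4855130 to 4860918, plus strand. Some exons are shared with other genes, and since the strand setting of the counting is not given, reads there cannot be assigned with certainty. Ctsb shares 774 exonic bases with Fdft1 on the other strand, Ctsd shares 808 with Gm49369 on its own strand, Ctsa shares 495 with Pltp and 324 with Neurl2 on the other strand, and Ctsz shares 10 with Nelfcd on the other strand. Ctsl shares 1742 exonic bases with the antisense gene Gm47123, which had 0 counts, and 395 with the pseudogene Gm49230, which had 1 count over all libraries.

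Start-site sequences are shown because members with unlike responses share the E-box that TFEB and TFE3 bind. RefSeq (GRCm38.p6) gave 10 windows of 250 bases before and 50 bases after a start site for 8 of the 10 genes, with no entry for Ctsb and Ctsh. The letters CACGTG, which read the same on both strands, were in 5 of the 10 windows, 1 each of Ctsa, Ctsd, Ctsf, Ctsl and Lgmn, and in 7.15% of the 32851 windows of that length in the table. The longer TCACGTGA, which contains it, was in the same windows of Ctsa and Ctsd and in 0.974% of all windows. Ctsa and Lgmn have a second window each, and neither holds CACGTG. By GENCODE M21 the 2 Ctsa matches and the nearer Ctsd match lie in untranslated exon sequence of the gene itself. The Ctsl match crosses the edge of such sequence, which ends at base 64370753, and is otherwise within the Ctsl gene. The Lgmn match lies within the Lgmn gene outside its exons, while the farther Ctsd match and the Ctsf match lie outside annotated genes. The 30-base stretches around each match are given below 5′ to 3′ on the gene's strand, with CACGTG in capitals.
Ctsa, 12 bases before the start, chr2:164833749-164833778: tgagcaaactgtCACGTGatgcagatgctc
Ctsa, 5 bases after the start, chr2:164833766-164833795: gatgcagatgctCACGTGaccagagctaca
Ctsd, 245 bases before the start, chr7:142388048-142388077: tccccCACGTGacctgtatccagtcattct
Ctsd, 98 bases before the start, chr7:142387908-142387937: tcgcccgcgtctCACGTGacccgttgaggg
Lgmn, 49 bases before the start, chr12:102439124-102439153: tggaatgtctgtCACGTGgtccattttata
Ctsl, 236 bases before the start, chr13:64370739-64370768: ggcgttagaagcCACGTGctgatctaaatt
Ctsf, 79 bases before the start, chr19:4855074-4855103: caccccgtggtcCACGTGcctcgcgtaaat
The window of Tpp1 had no CACGTG, and its 250 bases before the start (chr7:105752236-105752485, minus strand) are printed in lower case throughout.
Tpp1: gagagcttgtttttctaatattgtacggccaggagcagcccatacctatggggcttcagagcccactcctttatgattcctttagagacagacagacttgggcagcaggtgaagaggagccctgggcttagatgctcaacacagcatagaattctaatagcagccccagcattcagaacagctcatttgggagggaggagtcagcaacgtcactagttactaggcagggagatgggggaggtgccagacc
Of the 2 genes below all controls at both KO times, Ctsa has a match and Tpp1 has none. Ctsd, Ctsf, Ctsl and Lgmn, called higher at KO day 4 than at KO day 3 by the test described below, each have one. Tpp1 and Ctsc, whose KO day 4 libraries also all lay above those of KO day 3, have none. A match is a description of letters, and binding was not measured.

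The 10 genes did not move as a block. At KO day 4, Ctsd rose and Ctsa and Ctsb fell against control, and Tpp1 was lower. In KO day 3 libraries, Ctsa, Ctsl and Lgmn were below every control library without passing edgeR's test, though DESeq2 and limma voom called all 3, and Tpp1 was lower by more than at KO day 4. Between the KO times, Ctsd, Ctsf, Ctsl and Lgmn were higher and Ctsb lower at KO day 4. By edgeR's quasi-likelihood test at an adjusted p under 0.05, 3 of the 9 genes other than Tpp1 were called at KO day 4 against control (1 higher, 2 lower), beside 22.5% of all genes tested (11.1% higher, 11.5% lower). In the comparison of KO day 3 with control edgeR called 0 of 9, beside 0.440% of all genes. An unadjusted p under 0.05 was found there for 3 of the 9, beside 15.8% of all genes. DESeq2 and limma voom each called 3, beside 876 and 706 of all 13405 genes. For KO day 4 against KO day 3, 5 of 9 were called (4 higher, 1 lower), beside 12.5% of all genes (6.52% higher, 6.03% lower). Over all genes, 30.0% had an unadjusted p under 0.05 in that comparison, and DESeq2 called 2879. These values over all genes also stand beside the counts of the gene lists below. The median log2 fold change of the 9 was 0.41 at KO day 4 against control (-0.06 over all genes tested), -0.27 at KO day 3 against control (-0.02 over all) and 0.66 between KO day 4 and KO day 3 (-0.02 over all). The comparisons share libraries, so their counts are not independent of each other.

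**Figure D1:**
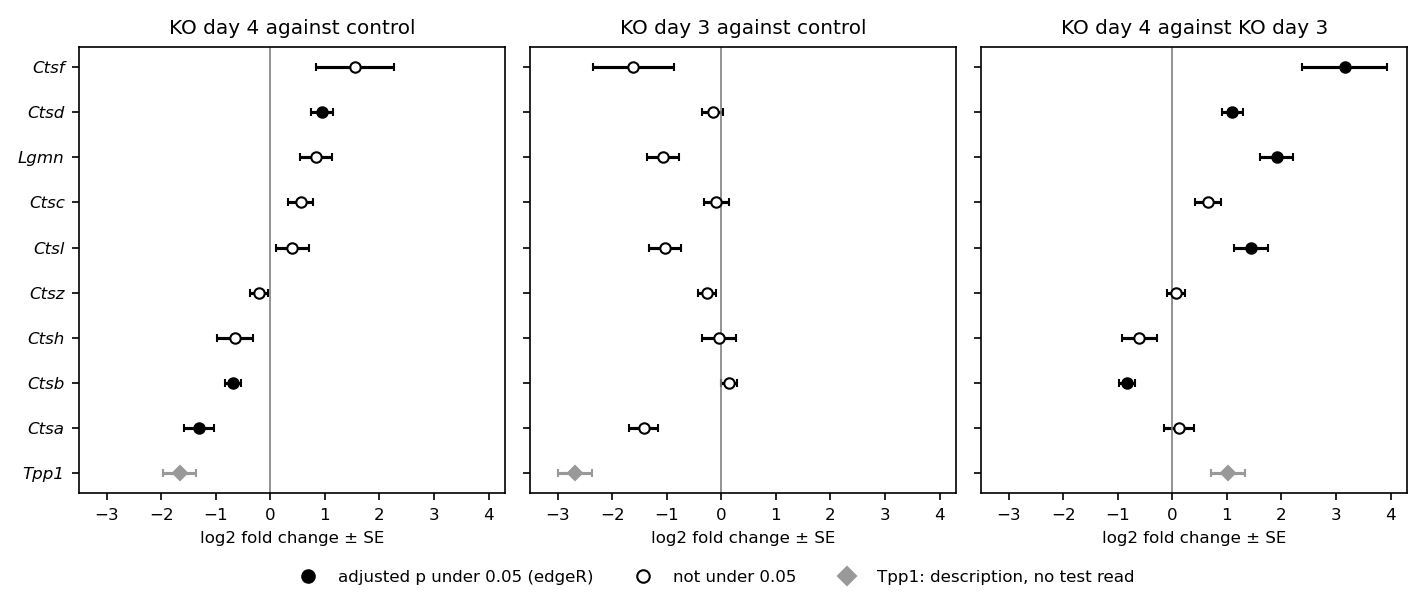
Log2 fold change of each gene (x axis) with its standard error for the KO groups against control and for KO day 4 against KO day 3. Filled circles passed edgeR's test at an adjusted p under 0.05, open circles did not, and grey diamonds mark Tpp1, whose levels led to the list and are a description. In the left panel the genes run from 1.55 (Ctsf) to -1.66 (Tpp1), and in the middle panel 9 of 10 lie below 0.

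Groups whose libraries do not overlap were common among all genes. At KO day 4, 4 of the 9 (Ctsc, Ctsd, Ctsf and Lgmn) had all 3 libraries above all controls and 2 (Ctsa and Ctsb) had all below, beside 47.0% of genes tested with no overlap either way. Likewise, 1 of the 9 (Ctsb) lay above all controls at KO day 3 and 5 (Ctsa, Ctsf, Ctsl, Ctsz and Lgmn) below, beside 30.1% of genes. Between KO day 4 and KO day 3, 5 of the 9 (Ctsc, Ctsd, Ctsf, Ctsl and Lgmn) were higher without overlap and 1 (Ctsb) lower, beside 32.8% of genes.

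**Figure D2:**
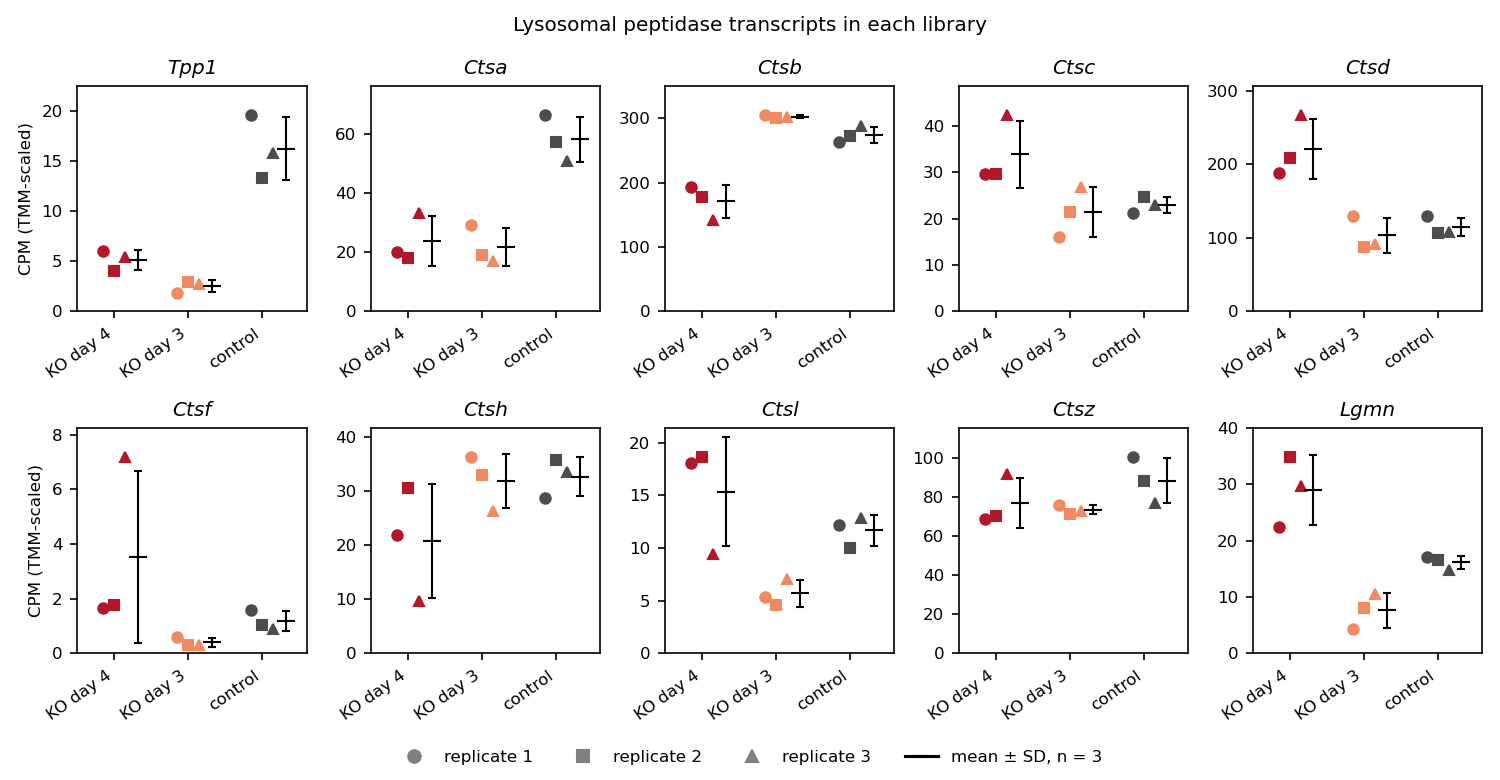
CPM of the 10 genes in each of 9 libraries, with KO day 4, KO day 3 and control from left to right in each panel and the mean ± SD of 3 libraries beside the points. Each panel has its own scale from 0. Tpp1 and Ctsa sit below the controls at both KO times, while Ctsd, Lgmn and Ctsf are highest at KO day 4.

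Levels are compared between genes as CPM per kilobase of merged exons. At KO day 4 Ctsd led with 94.2 ± 17.3 (SD, n = 3 here and below), followed by Ctsz with 53.5 ± 9.02, Ctsb with 28.2 ± 4.29 and Lgmn with 12.5 ± 2.67, and each of these was clear of the next in every library. Ctsc (5.84 ± 1.26), Ctsa (5.05 ± 1.77) and Ctsh (4.59 ± 2.33) overlapped each other at KO day 4, and Ctsl (2.37 ± 0.795), Tpp1 (0.989 ± 0.199) and Ctsf (0.698 ± 0.627) came last. The lead at KO day 3 was shared by Ctsz (51.1 ± 1.56), Ctsb (50.01 ± 0.382) and Ctsd (43.9 ± 9.91), whose libraries overlapped, and all others were at or under 7.06. In controls Ctsz (61.5 ± 8.14), Ctsd (48.9 ± 5.33) and Ctsb (45.4 ± 2.03) led with overlapping neighbours, then Ctsa (12.4 ± 1.64), which was clear of Ctsh (7.25 ± 0.807) and Lgmn (6.96 ± 0.512). Ctsc (3.94 ± 0.302) and Tpp1 (3.14 ± 0.609) overlapped in controls, and Ctsl (1.80 ± 0.226) and Ctsf (0.232 ± 0.0733) were lowest. Ctsf had the lowest mean of the 10 in each group, though its KO day 4 libraries overlapped those of Tpp1, and the place of Ctsd alone at the top was found at KO day 4.

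Tpp1 encodes the peptidase that removes tripeptides from the N-terminus of proteins in the lysosome. It was at 5.98, 3.97 and 5.37 CPM in KO day 4 libraries, 1.79, 2.90 and 2.76 CPM in KO day 3 libraries and 19.6, 13.3 and 15.8 CPM in controls. The groups did not overlap, with KO day 3 lowest and KO day 4 between it and the controls. These levels rest on 24 to 51 counts a library at KO day 4, 21 to 78 at KO day 3 and 352 to 504 in controls. The log2 fold change against control was -1.66 (SE 0.30) at KO day 4 and -2.68 (SE 0.31) at KO day 3, which is 3.17-fold and 6.43-fold lower. Between KO day 4 and KO day 3 the level of Tpp1 was 2.03-fold higher in KO day 4 libraries (1.02 in log2 terms, SE 0.31), a comparison that uses the same low KO day 3 values. Scaled by library size alone, this last value turned to -0.48, against a median of -1.54 over all genes. The value at KO day 3 against control was -2.51 without KO day 3 replicate 1 and KO day 4 replicate 3.

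Ctsa encodes cathepsin A, a carboxypeptidase that also shields β-galactosidase and neuraminidase in a complex. KO day 4 libraries held 20.0, 18.0 and 33.4 CPM, KO day 3 libraries 29.2, 19.2 and 17.0 CPM and controls 66.5, 57.3 and 51.1 CPM. Every KO library was below every control, and the KO groups overlapped. Ctsa fell at KO day 4 by 1.30 on the log2 scale, to a level 2.47-fold lower (SE 0.27, edgeR adjusted p = 0.0073). The value at KO day 3 was as large, -1.42 (SE 0.27), with an edgeR adjusted p of 0.051, which just missed the threshold, and 10 of 19 alternative settings called it, DESeq2 (adjusted p = 0.00052) and limma voom (0.0063) among them. So did the fit without KO day 3 replicate 1 and KO day 4 replicate 3 (-1.68, edgeR adjusted p = 0.0041). The difference between KO day 4 and KO day 3 was 0.12 (SE 0.27, edgeR adjusted p = 0.80). Of the genes sharing exons with Ctsa, Pltp had 34 counts over the KO day 4 libraries, 5 at KO day 3 and 0 in controls, and Neurl2 had 0, 15 and 17 in the same order, far below the 433, 1266 and 4584 counts of Ctsa.

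The partners of cathepsin A did not follow it closely. Glb1, which encodes β-galactosidase, was at 30.2 ± 7.05 CPM at KO day 4 and 30.7 ± 3.16 CPM at KO day 3, against 45.9 ± 2.05 CPM in controls, and fell at KO day 4 by 0.61 in log2 terms (SE 0.19, edgeR adjusted p = 0.042). That call was lost without KO day 3 replicate 2, KO day 4 replicate 1 or 2, or any 1 control (adjusted p from 0.063 to 0.12). RLE factors in place of TMM (0.062) and a fit of the 2 groups alone (0.054) also ended it. Neu1, which encodes the neuraminidase of the complex, was at 11.8, 9.06 and 23.1 CPM at KO day 4, 6.65, 3.99 and 5.60 CPM at KO day 3 and 9.51, 7.67 and 10.6 CPM in controls. It was higher at KO day 4 than at KO day 3 by 1.43 in log2 terms (SE 0.36, edgeR adjusted p = 0.028), and without KO day 4 replicate 3 the value was 0.96 (adjusted p = 0.075). The call was also lost without KO day 3 replicate 2 (1.25) or replicate 3 (1.46), and in a fit of the 2 groups alone (adjusted p = 0.070). Scaling by library size alone turned the value to -0.15, against the median of -1.54. Of these 2 genes, 0 passed edgeR's test at KO day 3 against control, both had an unadjusted p under 0.05 there, DESeq2 called 0 and limma voom 1.

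Ctsd encodes cathepsin D, the main aspartic endopeptidase of the lysosome. Its level was 188, 209 and 267 CPM in KO day 4 libraries, 130, 87.8 and 91.9 CPM in KO day 3 libraries and 129, 107 and 108 CPM in controls. All KO day 4 libraries lay above all others, with replicate 3 highest, and KO day 3 overlapped the controls. Ctsd rose 1.93-fold at KO day 4 against control (0.95 in log2 terms, SE 0.19, edgeR adjusted p = 0.0066) and 2.15-fold against KO day 3 (1.10, SE 0.20, edgeR adjusted p = 0.0072). Its value at KO day 3 against control was -0.16 (SE 0.19, edgeR adjusted p = 0.76). Both calls held without any 1 of the 9 libraries, and without KO day 4 replicate 3 and KO day 3 replicate 1 together the values were 0.79 and 1.14. Scaled by library size alone the values turned to -0.96 and -0.46, which is 0.99 and 1.08 above the median gene of the same scaling. Within KO day 4, and within KO day 3, the library with the highest Ctsd was also the one with the highest sum of mast cell markers. In both groups that library also had the highest macrophage and dendritic, T and NK, tuft and stromal sums. It was highest for Paneth and goblet markers at KO day 4 only, and for enterocyte markers at KO day 3 only. What part any of these cells have in the level was not tested. Gm49369, on the same strand, had 11, 52 and 67 counts over the KO day 4, KO day 3 and control libraries, against 4114, 6143 and 8986 for Ctsd.

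Ctsb encodes cathepsin B, a cysteine peptidase with both endopeptidase and carboxydipeptidase activity, and drew the most counts of the 10 genes in controls. Its level was 193, 177 and 142 CPM in KO day 4 libraries, 305, 300 and 303 CPM in KO day 3 libraries and 263, 272 and 288 CPM in controls. The KO day 4 libraries lay below all others and the KO day 3 libraries, which were close to each other, just above the controls. Ctsb fell at KO day 4 by 0.68 in log2 terms against control (SE 0.15, edgeR adjusted p = 0.0080) and by 0.82 against KO day 3 (SE 0.15, edgeR adjusted p = 0.0074), and both calls held without any 1 of the 9 libraries. Against control it was 0.14 at KO day 3 (SE 0.15, edgeR adjusted p = 0.71), which turned to -0.23 with library size alone, against a median of -0.39. Its neighbour Fdft1, an enzyme of sterol synthesis that shares the 774 bases, was higher at KO day 4 against control (log2 fold change 1.72, edgeR adjusted p = 0.0013), the opposite direction to Ctsb. At KO day 3 against control Fdft1 was at 1.20 (edgeR adjusted p = 0.065), the same direction as Ctsb. What part shared reads have in either gene was not tested.

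Ctsb and Ctsd can be set against each other within a library, where scaling has no part. The ratio of Ctsb to Ctsd counts was 1.03, 0.847 and 0.534 in KO day 4 libraries, 2.34, 3.42 and 3.30 in KO day 3 libraries and 2.04, 2.54 and 2.66 in controls. All KO day 4 libraries were thus below all others. Of the summed counts of the 10 genes, Ctsb took 28.7% ± 5.88 at KO day 4, 53.1% ± 2.34 at KO day 3 and 43.2% ± 3.07 in controls (SD, n = 3), and Ctsd took 36.7% ± 4.56, 18.0% ± 3.07 and 18.0% ± 1.38 in the same order. Ctsa took 3.92% ± 1.16 at KO day 4, 3.79% ± 0.933 at KO day 3 and 9.13% ± 0.947 in controls. The summed level of the 10 genes was 570 to 638 CPM at KO day 4, 549 to 604 CPM at KO day 3 and 625 to 660 CPM in controls. As CPM of nuclear counts, with mitochondrial transcripts left out, the sum was 866 to 915 at KO day 4, 992 to 1058 at KO day 3 and 1280 to 1392 in controls, with no overlap between groups.

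**Figure D3:**
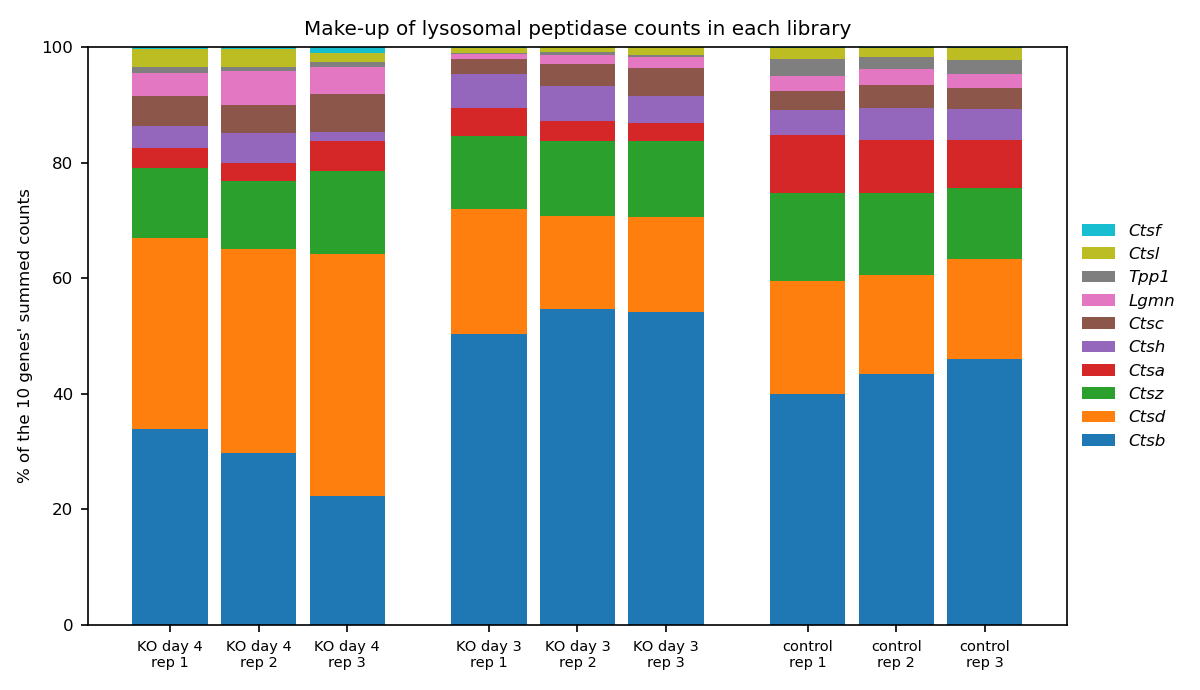
Share of the summed counts of the 10 genes taken by each gene (stacked bars, percent) in each KO day 4, KO day 3 and control library. Ctsd takes 33.1% to 41.8% in KO day 4 libraries, against 16.0% to 21.5% in KO day 3 libraries and 17.1% to 19.6% in controls.

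Lgmn, the gene of legumain, was at 22.5, 34.8 and 29.8 CPM in KO day 4 libraries, 4.35, 7.98 and 10.5 CPM in KO day 3 libraries and 17.1, 16.6 and 14.8 CPM in controls. The groups did not overlap, with KO day 4 above and KO day 3 below the controls. Lgmn was 3.76-fold higher at KO day 4 than at KO day 3 (1.91 in log2 terms, SE 0.31, edgeR adjusted p = 0.0053), a call that held without any 1 of the 9 libraries. Against control the values were 0.84 at KO day 4 (SE 0.30, edgeR adjusted p = 0.063) and -1.07 at KO day 3 (SE 0.30, edgeR adjusted p = 0.12). DESeq2 called both (adjusted p = 0.019 and 0.018), as did limma voom (0.045 and 0.046). Without KO day 3 replicate 1 and KO day 4 replicate 3 they were 0.82 (edgeR adjusted p = 0.023, past the threshold) and -0.80 (edgeR adjusted p = 0.077). With library size alone the KO day 4 value turned to -1.05 against control, which is 0.89 above the median gene, and the difference between the KO times was 0.39 (adjusted p = 0.27). The ratio of Lgmn to Ctsa counts, free of scaling, was 1.12, 1.94 and 0.893 in KO day 4 libraries, 0.149, 0.415 and 0.619 in KO day 3 libraries and 0.257, 0.290 and 0.290 in controls.

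Ctsl encodes cathepsin L, an endopeptidase active over a wide range of substrates. KO day 4 libraries held 18.0, 18.6 and 9.40 CPM, KO day 3 libraries 5.37, 4.59 and 7.05 CPM and controls 12.2, 10.01 and 12.8 CPM. The KO day 3 libraries were below all others, and KO day 4 replicate 3, at 9.40 CPM, was below the controls while its group mates were above them. Ctsl was 2.72-fold higher at KO day 4 than at KO day 3 (1.44 in log2 terms, SE 0.31, edgeR adjusted p = 0.014). That call was lost without KO day 3 replicate 2 (1.30, adjusted p = 0.060) or KO day 4 replicate 2 (1.28, adjusted p = 0.0504), and library size alone turned the value to -0.05, against the median of -1.54. Against control, Ctsl was 0.41 at KO day 4 (SE 0.30, edgeR adjusted p = 0.35) and -1.04 at KO day 3 (SE 0.30, edgeR adjusted p = 0.13), the last called by DESeq2 (adjusted p = 0.021) and limma voom (0.048).

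Ctsf, the gene of cathepsin F, was barely expressed, with 14, 11 and 32 counts in KO day 4 libraries, 7, 7 and 8 in KO day 3 libraries and 41, 31 and 20 in controls. As levels these were 1.64, 1.75 and 7.17 CPM at KO day 4, 0.597, 0.303 and 0.284 CPM at KO day 3 and 1.59, 1.02 and 0.898 CPM in controls. KO day 4 replicate 3 was the high library, and it also held the highest sum of mast cell markers. It was likewise highest for Paneth, goblet, tuft, macrophage and dendritic, T and NK, and stromal markers. Ctsf was higher at KO day 4 than at KO day 3 (3.16 in log2 terms, SE 0.78, edgeR adjusted p = 0.026), but without KO day 4 replicate 3 the value was 2.14 (adjusted p = 0.083). Without KO day 3 replicate 2 or 3 it was 3.00 and 2.95, again not past the threshold (adjusted p = 0.091 and 0.075). In a fit of the 2 groups alone it was 3.16, also not past it (adjusted p = 0.066). Against control it was 1.55 at KO day 4 (SE 0.72, edgeR adjusted p = 0.14), 0.52 without KO day 4 replicate 3, and -1.61 at KO day 3 (SE 0.75, edgeR adjusted p = 0.32).

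Ctsc encodes cathepsin C, a dipeptidyl peptidase that activates the granule serine proteases of immune cells. Its level was 29.7, 29.7 and 42.3 CPM in KO day 4 libraries, 15.9, 21.4 and 26.9 CPM in KO day 3 libraries and 21.1, 24.6 and 23.0 CPM in controls. The KO day 4 libraries lay above all others, with replicate 3 highest. Neither the value against control (0.56, SE 0.23, edgeR adjusted p = 0.10) nor that against KO day 3 (0.66, SE 0.23, edgeR adjusted p = 0.084) passed edgeR's test, and with library size alone they turned to -1.36 and -0.88. DESeq2 called the difference between the KO times (0.68, adjusted p = 0.035). Mast cells carry the proteases that cathepsin C activates, and their summed markers were highest in the KO day 4 libraries, and among these in replicate 3. The Paneth, goblet, tuft, macrophage and dendritic, T and NK, and stromal sums were highest there too. Within KO day 3 the order differed, with Ctsc lowest in replicate 1, the library with the highest mast cell sum.

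Ctsz and Ctsh showed no change that passed edgeR's test in any comparison, nor were they called by DESeq2 or limma voom. Ctsz, the gene of the carboxypeptidase cathepsin Z, was at 68.7, 70.4 and 92.0 CPM in KO day 4 libraries, 76.1, 71.6 and 73.1 CPM in KO day 3 libraries and 101, 88.2 and 77.1 CPM in controls. The KO day 3 libraries lay just below the controls and those of KO day 4 overlapped both, with log2 fold changes of -0.20 at KO day 4 (SE 0.16, edgeR adjusted p = 0.40) and -0.27 at KO day 3 (SE 0.16, edgeR adjusted p = 0.47). Ctsh, the gene of the aminopeptidase cathepsin H, was at 21.8, 30.5 and 9.63 CPM in KO day 4 libraries, 36.2, 32.9 and 26.3 CPM in KO day 3 libraries and 28.6, 35.7 and 33.5 CPM in controls. KO day 4 replicate 3 was the low library, and the values were -0.65 at KO day 4 (SE 0.32, edgeR adjusted p = 0.17) and -0.04 at KO day 3 (SE 0.31, edgeR adjusted p = 0.97). Among the KO day 4 libraries, replicate 3 was the highest for Ctsa, Ctsc, Ctsd, Ctsf and Ctsz and the lowest for Ctsb, Ctsh and Ctsl, so it differed from its group mates in both directions.

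Profiles like that of Tpp1 were sought over the 9 libraries as the root mean square difference in centred log2(CPM + 1) among 8037 genes with a mean of at least 5 CPM. Among the 5 nearest were Shkbp1 at 0.20, with 4.27 CPM at KO day 4, 1.58 CPM at KO day 3 and 12.3 CPM in controls, Fuca2, the gene of a fucosidase, at 0.35, Naglu, the gene of the lysosomal N-acetylglucosaminidase, at 0.37, and Mnat1, a subunit of the CDK-activating kinase, at 0.38. Each of these 4 had its lowest group mean at KO day 3 and its highest in controls. The nearest of the other members was Ctsa, at rank 26 with 0.54. For Ctsb, the member with the highest mean CPM, the nearest were the mitochondrial enzyme genes Fh1 (0.07) and Uqcrc2 (0.09), the DNA repair gene Apex1 (0.09), Rer1 (0.09) and the transcription factor gene Myb (0.10), and the nearest member, Ctsh, was at rank 1558 with 0.33. Likeness over 9 libraries in 3 groups mostly reflects the 3 group means.

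**Figure D4:**
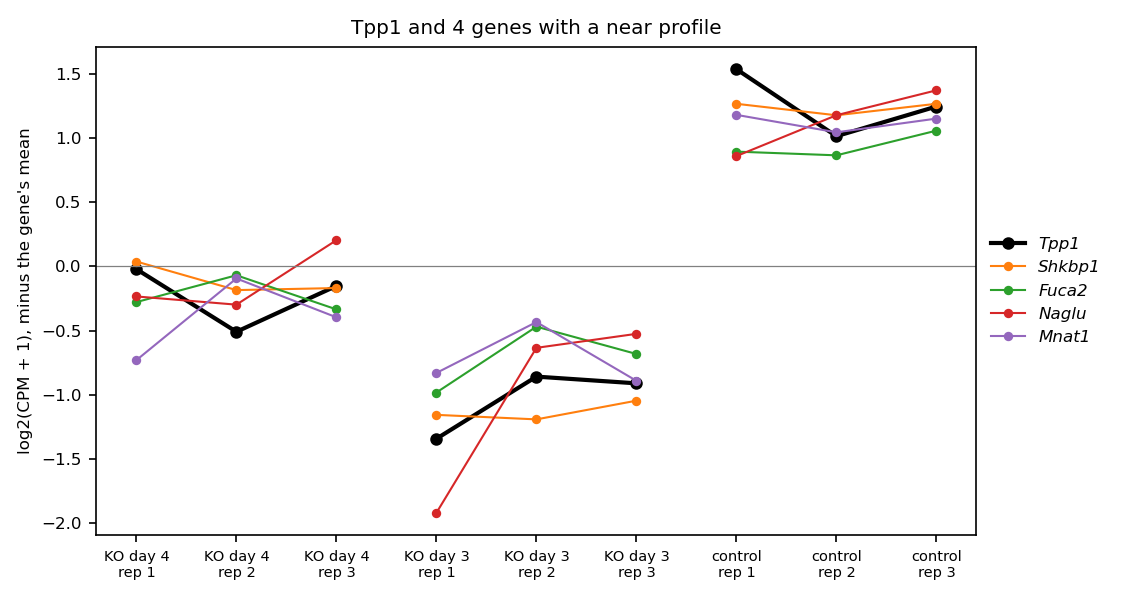
Centred log2(CPM + 1) of Tpp1 (black) and 4 of the 5 genes with the nearest profile in each KO day 4, KO day 3 and control library. Lines join the libraries of 1 group and carry no order. All 5 genes are lowest in KO day 3 libraries, apart from an overlap of KO day 4 and KO day 3 libraries in Mnat1, and highest in controls.

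Of 11 other genes of lysosomal peptidases 6 were tested, and 3 fell and 0 rose at KO day 4 against control (11.5% and 11.1% of all genes), the 6 having a median of -1.20 (-0.06 over all genes). Ctss, the gene of cathepsin S, an endopeptidase of antigen-presenting cells, was at 7.38, 3.02 and 3.13 CPM in KO day 4 libraries, 16.8, 9.58 and 12.4 CPM in KO day 3 libraries and 30.6, 29.1 and 23.9 CPM in controls. It fell by 2.58 at KO day 4 against control (SE 0.36, edgeR adjusted p = 0.0011). The sum of macrophage and dendritic cell markers was highest in the KO day 4 libraries. Of its 11 genes only Cd14 had a lower mean there than in controls (-0.97, edgeR adjusted p = 0.31). Lyz2 had a mean of 21.6 CPM against 1.26 CPM in controls, and Cx3cr1 3.59 against 0. Adgre1 was at 2.86 against 0.0388 CPM and Csf1r at 2.52 against 0.266 CPM. C1qa and Itgax had 9 and 4 counts there and 0 in controls. Scpep1, a serine carboxypeptidase, fell by 1.19 (SE 0.24, edgeR adjusted p = 0.0062) and Cpq, a plasma glutamate carboxypeptidase, by 1.67 (SE 0.36, edgeR adjusted p = 0.0078), and all 3 calls held without any 1 of the 9 libraries. At KO day 3 against control 0 passed edgeR's test (median -0.54), 2 had an unadjusted p under 0.05, and DESeq2 and limma voom called 2 each. Between KO day 4 and KO day 3, Ctss (-1.47, edgeR adjusted p = 0.024) and Scpep1 (-0.84, edgeR adjusted p = 0.043) were lower at KO day 4 and 0 were higher. The Ctss call between the KO times was lost without KO day 3 replicate 1, KO day 4 replicate 2 or KO day 4 replicate 3 (adjusted p from 0.056 to 0.077), and that of Scpep1 without any 1 library other than KO day 4 replicate 1 (0.059 to 0.12). Both were also lost with limma voom (0.079 for Ctss and 0.064 for Scpep1) and in a fit of the 2 groups alone (0.074 and 0.12).

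Cystatins, the inhibitors of cysteine cathepsins, were tested for 4 of 8 genes. Cst3, the gene of the secreted cystatin C, was at 54.6, 44.7 and 46.6 CPM in KO day 4 libraries, 95.4, 68.0 and 56.2 CPM in KO day 3 libraries and 85.1, 78.8 and 63.3 CPM in controls. It fell at KO day 4 by 0.64 (SE 0.21, edgeR adjusted p = 0.048), a call lost on leaving out any 1 of 7 libraries, among them every control and every KO day 4 library (adjusted p from 0.052 to 0.15). The Cst3 call was also lost with limma voom (adjusted p = 0.069) and with RLE factors in place of TMM (0.067). Cst7, a cystatin of leukocytes, had 45 counts over the KO day 4 libraries, 17 over the KO day 3 libraries and 0 in controls. Taking 3 counts over the control group as the floor, its level was at least 60.9-fold higher at KO day 4 and at least 7.04-fold higher at KO day 3, beside the mast cell sums given above. It passed the filter on low counts through the KO day 4 libraries, where it is high, so no test of it is read. Without Cst7, the median of Cst3, Cst6 and Cstb was -0.42 at KO day 4 and -0.68 at KO day 3 against control (all genes -0.06 and -0.02). Between the KO times it was 0.58 (all genes -0.02). Against control at KO day 3, 0 of 4 passed edgeR's test, 2 had an unadjusted p under 0.05, and DESeq2 called 2 and limma voom 1. Cst7 was 1 of the 2 in both cases and is not read. Between KO day 4 and KO day 3 edgeR again called 0 of 4, with 3 at an unadjusted p under 0.05, 2 by DESeq2 and 1 by limma voom. Cst7 was among each of these and again is not read.

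Of 10 genes that sort hydrolases to lysosomes, 3 were lower and 1 was higher at KO day 4 against control, beside 11.5% and 11.1% of all genes, with a median of -0.46 (-0.06 over all). Sort1, the gene of the receptor sortilin, was at 55.4, 49.4 and 42.5 CPM in KO day 4 libraries, 73.8, 92.7 and 82.9 CPM in KO day 3 libraries and 105, 111 and 102 CPM in controls. It fell by 1.11 at KO day 4 against control (SE 0.16, edgeR adjusted p = 0.0011) and by 0.76 against KO day 3 (SE 0.16, edgeR adjusted p = 0.013), the last lost without KO day 3 replicate 2 (adjusted p = 0.053). Nagpa, which uncovers the mannose phosphate tag, was at 1.76, 1.27 and 3.13 CPM at KO day 4, 5.03, 1.30 and 3.33 CPM at KO day 3 and 10.1, 8.16 and 12.1 CPM in controls, and fell at KO day 4 by 2.33 (SE 0.52, edgeR adjusted p = 0.0098). M6pr, the gene of the small receptor for the tag, fell by 0.79 against control (SE 0.22, edgeR adjusted p = 0.025) and by 1.06 against KO day 3 (SE 0.22, edgeR adjusted p = 0.013), the call against control being lost without KO day 4 replicate 2 or 3 or control replicate 2 or 3 (0.066 to 0.084). Gga1, an adaptor of the receptors, was higher at KO day 4 against control (0.66, SE 0.21, edgeR adjusted p = 0.047), a call lost without any 1 of 7 libraries (0.051 to 0.15) and turned to -1.27 with library size alone, against the median of -1.95. The Gga1 call was also lost with limma voom (adjusted p = 0.062) and with no filter on low counts (0.13). For KO day 3 against control 0 of 10 passed edgeR's test (median -0.10), 3 had an unadjusted p under 0.05, and DESeq2 and limma voom called 2 each. Between the KO times 1 was higher at KO day 4, the adaptor gene Gga3 (1.12, edgeR adjusted p = 0.048, named after its value was seen), and 2 were lower, with a median of -0.30.

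Of 10 other genes of neuronal ceroid lipofuscinosis, the disease group to which Tpp1, Ctsd and Ctsf belong, 3 fell and 0 rose at KO day 4 against control, beside 11.5% and 11.1% of all genes, with a median of -0.39 (-0.06 over all). Ppt1, a lysosomal thioesterase, was at 10.1, 6.36 and 11.2 CPM in KO day 4 libraries, 9.72, 12.5 and 10.7 CPM in KO day 3 libraries and 25.4, 31.9 and 26.4 CPM in controls. Every KO library was below every control, and Ppt1 fell by 1.60 at KO day 4 (SE 0.25, edgeR adjusted p = 0.0017) and by 1.34 at KO day 3 (SE 0.24, edgeR adjusted p = 0.043). The call at KO day 3, edgeR's 1 call of this list there, was lost on leaving out any 1 of 7 libraries, every KO day 3 library and every control among them (adjusted p from 0.051 to 0.24). DESeq2 called 2 of the list at KO day 3, among them Atp13a2 (adjusted p = 0.040), and limma voom 3, among them Atp13a2 (0.048) and Grn (0.033). Grn, the gene of progranulin, fell at KO day 4 by 1.26 (SE 0.25, edgeR adjusted p = 0.0055), and Atp13a2, a lysosomal polyamine transporter, by 1.12 (SE 0.30, edgeR adjusted p = 0.023), the last lost without KO day 4 replicate 1 or 3 or any 1 control (0.052 to 0.086). The median of the list was -0.64 at KO day 3, and between the KO times it was -0.22, where edgeR called 0 of 10, 1 had an unadjusted p under 0.05, and DESeq2 and limma voom called 0.

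Of the factors that bind the E-box, 3 of 4 were tested. Tfe3 was at 22.3, 30.0 and 21.5 CPM in KO day 4 libraries, 7.25, 8.37 and 12.1 CPM in KO day 3 libraries and 11.96, 13.9 and 12.2 CPM in controls. It rose at KO day 4 against control (0.96 in log2 terms, SE 0.25, edgeR adjusted p = 0.019) and was higher than at KO day 3 (1.41, SE 0.25, edgeR adjusted p = 0.0074), and with library size alone the values turned to -0.94 and -0.11, against medians of -1.95 and -1.54. The call against control was lost without KO day 4 replicate 2 or any 1 control (adjusted p from 0.055 to 0.074). Tfeb was at 11.2 ± 2.69 CPM at KO day 4, 10.4 ± 3.23 CPM at KO day 3 and 11.9 ± 1.32 CPM in controls, and Mitf at 1.43 ± 0.0901 CPM, 0.355 ± 0.444 CPM and 0.0960 ± 0.0993 CPM in the same order, neither past edgeR's test. Mitf came near it at KO day 4 against control (3.77, SE 1.31, edgeR adjusted p = 0.060), on 28 counts against 8. Of the 3 factors, 2 had an unadjusted p under 0.05 in that comparison, beside 36.5% of all genes. DESeq2 and limma voom each called 2 of the 3 there. At KO day 3 against control 0 of 3 passed edgeR's test, with 0 at an unadjusted p under 0.05 and 0 by DESeq2 or limma voom. The medians of the list were 0.96 at KO day 4 against control, -0.21 at KO day 3 against control and 1.41 between the KO times.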

How the data were processed

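The deposited table holds the authors' raw counts for 9 libraries, 1 row for each Ensembl identifier, neither normalized nor pooled. HISAT2 2.0.4 and the build GRCm38 are named in the submitters' processing notes. The tool that counted reads, whether it used strand, and its annotation are not given in the sources used here. Of 57180 identifiers, 51933 were named by GENCODE M21 and 5247 were left without a name, and 6 empty trailing columns were not used. Groups came from the sample titles.

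The members and all gene lists were chosen with earlier results of these data known. The lists were other lysosomal peptidases, cystatins, sorting genes, partners of cathepsin A, other neuronal ceroid lipofuscinosis genes, MiT/TFE factors and markers of 9 cell types. All members were named, and from each list up to 4 genes called in any comparison, smallest adjusted p first. The 5 genes nearest in profile were also named, except 1 that is not reported here.

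Counts were tested with edgeR 4.0.16 in R 4.3.3, by its quasi-likelihood F-test (filterByExpr at its defaults of 10 and 15 counts, TMM, 1 fit of 9 libraries, Benjamini-Hochberg over 13405 genes, threshold 0.05). The code was tested on simulated data. The SE is the fold change divided by the square root of F. Alternatives were RLE factors, library size alone, no mitochondrial genes, no filter, a mean CPM of at least 5, DESeq2 1.42.0, limma voom (3.58.1), 2 groups a fit, a replicate block, and libraries left out. Libraries held 8400458 to 21484679 counts. Replicates differed by more than sampling noise in every pair (chi-square over its degrees of freedom, 12.8 to 89.2). Floors are set on the control counts alone and cover counting error there only, with KO counts taken as read.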

Additional observations from a re-analysis of the deposited data

Results flagged for a closer look

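Of the peptidase genes, 5 had effects that differed between the KO times by edgeR's test of the difference itself, the log2 fold change at KO day 4 minus that at KO day 3 (3 libraries a group, all without overlap between the KO groups). Lgmn differed by 1.91 (0.84 at KO day 4 and -1.07 at KO day 3 against control, edgeR adjusted p = 0.0053). Ctsd differed by 1.10 (0.95 and -0.16, edgeR adjusted p = 0.0072) and Ctsb by -0.82 (-0.68 and 0.14, edgeR adjusted p = 0.0074). Ctsl differed by 1.44 (0.41 and -1.04, edgeR adjusted p = 0.014), and Ctsf, on 7 to 41 counts a library, by 3.16 (1.55 and -1.61, edgeR adjusted p = 0.026).

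Of the genes outside the 10, Ctss differed between the KO times by -1.47 (edgeR adjusted p = 0.024), Scpep1 by -0.84 (0.043), Sort1 by -0.76 (0.013) and M6pr by -1.06 (0.013), each lower at KO day 4 in all 3 libraries. Neu1 differed by 1.43 (edgeR adjusted p = 0.028) and Tfe3 by 1.41 (0.0074), each higher at KO day 4 in all 3 libraries. Both KO groups are set against the same controls, and the same libraries differ in summed mast cell markers, which reach 430 to 1175 CPM of nuclear counts in KO day 4 libraries and 20.1 to 183 in those of KO day 3. The marker sums of the other cell types also did not overlap between the KO groups. What part any of them has in these differences was not tested.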

How the results depend on the processing

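Of 510 results for the members other than Tpp1 under alternatives, 451 kept their direction and side of the threshold, 30 passed it in addition, 9 lost it and 20 changed sign. The calls of Ctsa, Ctsb and Ctsd at KO day 4 against control, and of Ctsb, Ctsd and Lgmn between the KO times, held on leaving out any 1 library. Most sign changes came from scaling by library size alone, where the median of all genes moved by over 0.1. The depth of Ctsf, 7 to 41 counts a library, limits that gene.

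The number of genes called at KO day 4 against control was 3021 (1484 higher, 1537 lower), and 11057 with library size alone (288 higher, 10769 lower). Leaving out 1 library gave 1588 to 3839, lowest without control replicate 2 and at 1744 and 1750 without control replicates 1 and 3, and leaving out both libraries that stood apart gave 4112. At KO day 3 against control 59 were called (19 higher, 40 lower), with 876 by DESeq2 (395 and 481), 706 by limma voom (162 and 544), 518 with library size alone (39 and 479), 317 with no filter, 337 with the 2 groups alone (56 and 281) and 646 without KO day 3 replicate 1 and KO day 4 replicate 3. Leaving out 1 library gave 0 to 345 there, with 0 called by edgeR without KO day 3 replicate 3 (1747 at an unadjusted p under 0.05) or without control replicate 2 (1333), 5 and 3 without control replicates 1 and 3, 35 without KO day 3 replicate 2, 38 without KO day 4 replicate 2 and 345 without KO day 4 replicate 3. Between KO day 4 and KO day 3, 1682 were called (874 higher, 808 lower), with 2879 by DESeq2, 9508 with library size alone (189 and 9319) and 806 with the 2 groups alone (526 and 280), and leaving out 1 library gave 648 to 1802, lowest without KO day 3 replicate 2, with 926 without KO day 4 replicate 2 and 1011 without KO day 4 replicate 3. The cause of these shifts was not tested.

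Same-numbered libraries did not deviate together throughout. Their correlations ran from -0.03 to -0.02 between KO day 4 and control and from -0.06 to 0.02 between the KO times. Between KO day 3 and control they ran from 0.08 to 0.20, against -0.16 to -0.02 for libraries of different number. Whether the numbers pair the KO day 3 and control samples is therefore not settled, and the main fit used no pairing. With a replicate block the calls were 2680 at KO day 4 against control, 9 at KO day 3 against control and 1537 between the KO times. The block ended the calls of Ctsf (3.04, adjusted p = 0.058) and Scpep1 (0.052) between the KO times, of Ppt1 at KO day 3 against control (0.098) and of Glb1 (0.060) and Gga1 (0.064) at KO day 4 against control, and no other call among the members and the genes the naming rule picked from the lists.

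With library size alone, values at KO day 4 against control turned to -1.36 for Ctsc, -0.96 for Ctsd, -0.38 for Ctsf, -1.45 for Ctsl, -1.05 for Lgmn, -1.27 for Gga1, -1.28 for Neu1 and -0.94 for Tfe3. At KO day 3 against control they turned to -0.23 for Ctsb, -0.094 for M6pr and -0.29 for Gga1, and between KO day 4 and KO day 3 to -0.48 for Tpp1, -1.44 for Ctsa, -0.88 for Ctsc, -0.46 for Ctsd, -0.055 for Ctsl, -1.48 for Ctsz, -0.98 for Gga1, -0.15 for Neu1 and -0.11 for Tfe3.

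The other sign changes were in values that passed no test, and most came from leaving out libraries. At KO day 3 against control these values ranged over the omissions from -0.29 to 0.078 for Ctsc, from -0.14 to 0.080 for Ctsh, from -0.28 to 0.11 for Cst3 and from -0.017 to 0.20 for Gga1, with 0.078 for Ctsc and -0.016 for Gga1 without both libraries that stood apart. Between the KO times they ranged from -0.20 to 0.37 for Ctsa, from -0.087 to 0.13 for Ctsz, from -0.22 to 0.11 for Glb1 and from -0.42 to 0.16 for Atp13a2. Ctsz was also at -0.061 without both libraries that stood apart and at -0.018 with no filter, and Glb1 was at 0.058 among genes with a mean CPM of at least 5.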

Other observations

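Some lysosomal peptidase genes were too low to be tested and are given as counts. Napsa, the gene of the aspartic peptidase napsin A, had 35 counts over the KO day 4 libraries, 5 over the KO day 3 libraries and 0 in controls. Against a floor of 3 counts over the control group, with the KO counts taken as read, its level was at least 47.4-fold higher at KO day 4. At KO day 3 its counts overlapped the controls at 0, so no fold is given. Ctsg, the gene of cathepsin G, a granule serine protease of myeloid and mast cells, had 11 counts over the KO day 4 libraries, 2 over the KO day 3 libraries and 0 in controls. Its level was at least 14.9-fold higher at KO day 4 against the same floor. That fold rests mostly on KO day 4 replicate 3, which held 9 of the 11 counts, and another KO day 4 library was at 0. Ctsw, the cathepsin gene of cytotoxic lymphocytes, and the stefin genes Csta1, Stfa1, Stfa2 and Stfa3 had 0 counts in all 9 libraries. Ctsk, the gene of the collagen-degrading cathepsin K, was seen in 2 libraries, KO day 4 replicate 1 (1.05 CPM) and in control replicate 1 (0.0388 CPM).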
